A study of Mus musculus with 12 samples.

Results

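The Notch genes described here are 4 receptors (Notch1, Notch2, Notch3 and Notch4), 4 ligands (Jag1, Jag2, Dll1 and Dll4) and 2 target genes (Hes1 and Hey1). They were chosen by name, each is measured by 1 probe set that is named after its Entrez gene number, and they make up 10 of the 17306 probe sets tested. RNA came from C166 cells, a mouse line that the labels call endothelial, on 12 expression arrays in 3 groups of 4. All groups were transduced at 20% confluency and a multiplicity of infection of 10 with a lentiviral vector encoding GFP, received fresh medium at 72 h and were collected on day 7, with more than 99% of cells expressing GFP per the labels. VEGF-up and VEGF-down cells also carried an shRNA against a stretch of the Vegfa promoter, a different one for each group, chosen to raise or lower Vegfa. GFP cells carried no shRNA, so carrying any shRNA and the change in Vegfa cannot be told apart in a comparison with them. Between VEGF-up and VEGF-down cells, the change in Vegfa and any other effect of the different shRNAs cannot be told apart either. The labels do not say whether the 4 arrays of a group are separate cultures, and p-values then measure only the spread between these samples.

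Notch receptors are membrane proteins that are activated by ligands of the Jagged and Delta-like families on a neighbouring cell. Ligand binding exposes the receptor to cleavage by an ADAM protease and then by gamma-secretase, and the released intracellular domain enters the nucleus, joins the DNA-binding protein RBPJ and a Mastermind coactivator, and turns on target genes such as those of the Hes and Hey families of repressors. In sprouting blood vessels VEGF-A is known to raise Dll4 in the leading tip cells, and Dll4 then activates Notch in their neighbours, while Jag1 opposes Dll4 there.

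Levels are log2 array intensities and are compared only within a probe set, between groups. A probe set was taken as above background where its mean exceeded 3.09, the 95th percentile of the mean levels of 69 chemosensory receptor probe sets; 37.2% of the tested probe sets did not. Most of the endothelial identity genes did not either: of 12 endothelial markers 9 lay at or below background, among them Pecam1 (mean 2.43), Cdh5 (2.60), Tie1 (2.16), Vwf (2.14) and Cldn5 (2.35), and Kdr, Flt1 and Esam were the 3 above it. All 7 fibroblast markers and all 7 mesothelial markers were above background by their mean over the 12 arrays, although the keratin gene Krt8 was so in VEGF-down cells alone (group means 2.19 in VEGF-up, 5.66 in VEGF-down and 2.20 in GFP cells), so the endothelial label is not borne out by these markers. The marker lists also moved with the groups. The sum of the log2 levels of the fibroblast markers was 70.9 to 71.4 on VEGF-up arrays, 65.1 to 65.6 on VEGF-down arrays and 72.8 to 74.5 on GFP arrays, and the sum of the mesothelial markers was 52.6 to 53.1 on VEGF-up arrays, 59.6 to 60.6 on VEGF-down arrays and 51.7 to 52.0 on GFP arrays. All 7 fibroblast markers fell in VEGF-down cells and 4 fell in VEGF-up cells relative to GFP, while 5 mesothelial markers rose and 1 fell in VEGF-down cells. Over all probe sets 14.6% rose and 16.4% fell in VEGF-down cells relative to GFP, and 6.51% fell in VEGF-up cells. Among probe sets above background 45.1% changed in VEGF-down and 20.8% in VEGF-up cells relative to GFP. When arrays were scaled to spike-in RNA, 3 mesothelial markers rose and 1 fell in VEGF-down cells. The endothelial sum was 32.9 to 33.9 in VEGF-up, 35.9 to 36.1 in VEGF-down and 32.7 to 32.9 in GFP cells. Kdr was the only one of the 12 endothelial genes to change in either comparison with GFP. For VEGF-down against GFP there were 1 rise and 9 falls with median centring and 1 rise and 11 falls with spike-in scaling. Over all probe sets 61.9% changed there with median centring, 23.8% of them upwards. With spike-in scaling 87.0% of all probe sets changed, 4.5% of them upwards. The endothelial counts are to be read beside these shares. The smooth muscle and pericyte sum was 62.9 to 63.2 in VEGF-up, 58.8 to 59.1 in VEGF-down and 62.6 to 62.9 in GFP cells. That of the blood and macrophage markers, with Ptprc, Itgam and Adgre1 below background, was 27.0 to 27.7 in VEGF-up, 27.6 to 28.5 in VEGF-down and 28.7 to 29.1 in GFP cells. The part of these shifts in the Notch results was not tested, and in bulk RNA fewer cells of a kind and less RNA per cell cannot be told apart.

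**Figure D1:**
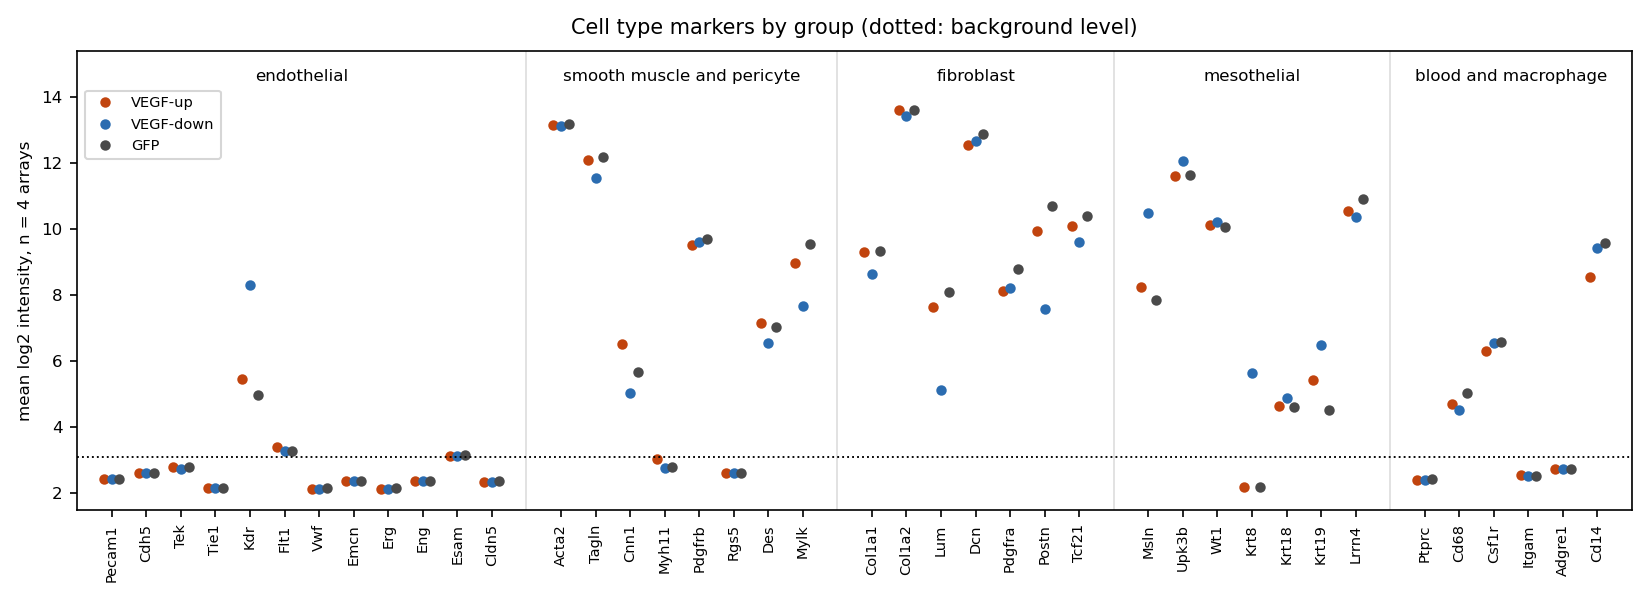
Mean log2 intensity (vertical axis, n = 4 arrays) of each marker gene, grouped by cell type, for VEGF-up, VEGF-down and GFP cells; the dotted line is the background level of 3.09. Of the 12 endothelial markers 9 lie at or below the line, and Kdr is far higher in VEGF-down cells than in the other groups.

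Vegfa, the gene that both shRNAs were aimed at, had log2 levels of 7.35, 7.66, 7.68 and 7.48 on VEGF-up arrays, 6.46, 6.61, 6.54 and 6.55 on VEGF-down arrays and 7.15, 7.37, 7.13 and 7.15 on GFP arrays. The VEGF-down arrays lay below all others, whereas 1 VEGF-up array lay within the range of GFP. Vegfa fell in VEGF-down cells relative to GFP (log2 difference -0.66 ± 0.08, SE, adjusted p = 5.76e-05) and rose in VEGF-up cells (0.34 ± 0.08, adjusted p = 0.0134). Scaling to spike-in RNA lowered every VEGF-up minus GFP difference by the same step, and took the median over all probe sets from -0.01 to -0.18. The rise of Vegfa is smaller by that step, and whether it then passed is not given here.

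Among the Notch genes the clearest difference was in the ligand gene Jag1, which rose 1.34-fold in VEGF-down cells relative to GFP cells, although its difference shrank to 0.12 with an adjusted p of 0.241 when arrays were scaled to spike-in RNA, control transcripts with a poly-A tail that are added before labelling. VEGF-up cells were 1.40 times lower in Jag1 and 1.21 times lower in the target gene Hes1 than VEGF-down cells. They were 1.20-fold higher than VEGF-down cells in the receptor gene Notch3, whose values lay not far above background. No Notch gene passed the test in VEGF-up cells relative to GFP. The ligand gene Dll4 lay below background on all 12 arrays, as did the receptor gene Notch4, and the means of Jag2 and Hey1 lay below it too, which left 6 of the 10 genes above background by their mean over the 12 arrays.

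**Figure D2:**
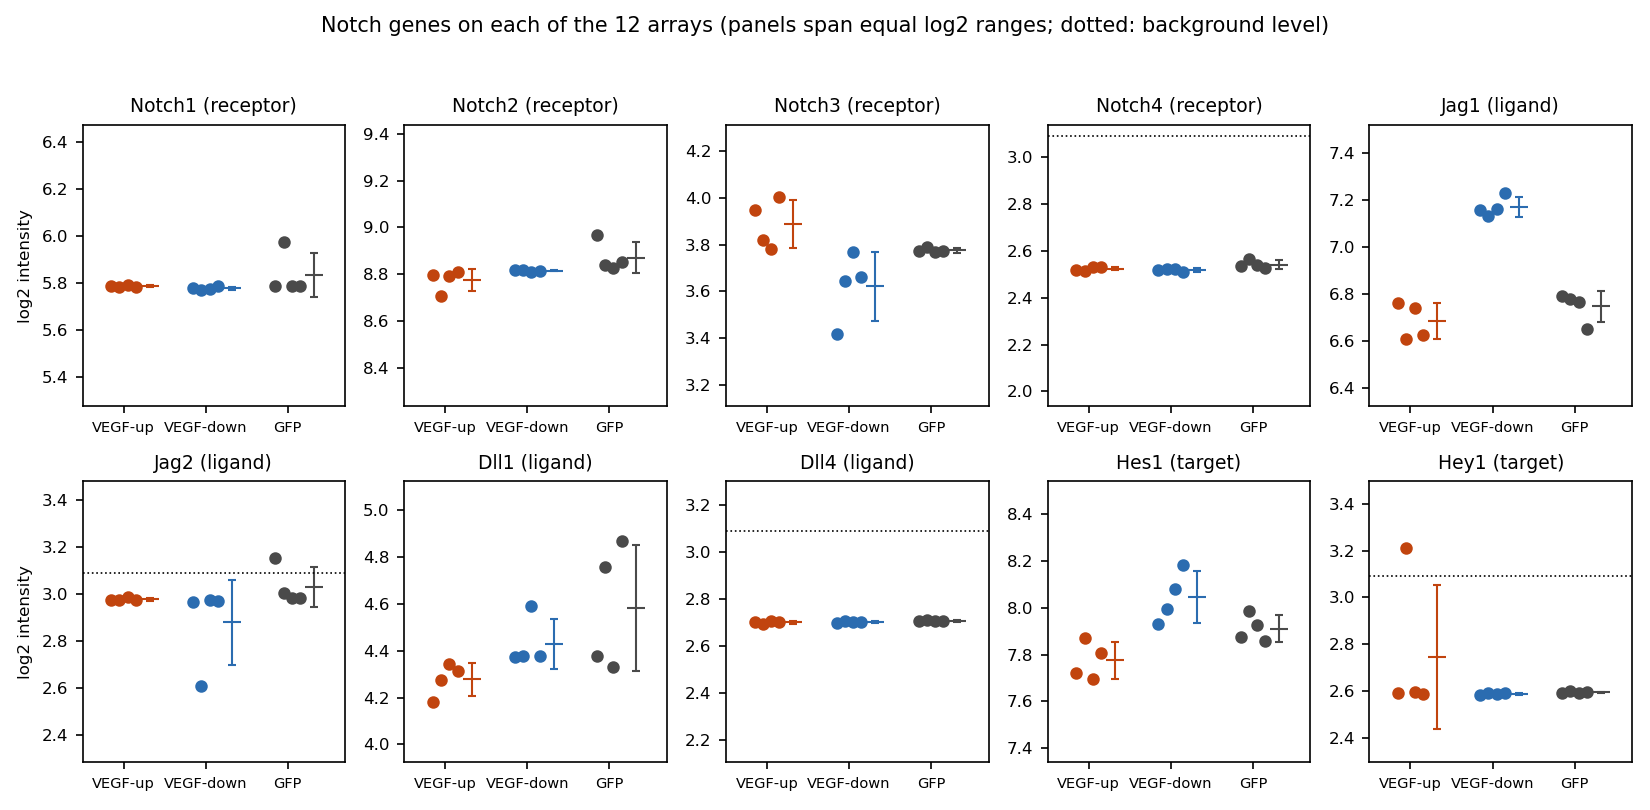
Log2 intensity of each Notch gene on the 4 arrays (points) of VEGF-up, VEGF-down and GFP cells, with the group mean and SD beside them; all panels span the same log2 range and the dotted line is the background level. Jag1 is higher on all 4 VEGF-down arrays than on any other array, and Notch1, Notch4 and Dll4 barely vary.

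Of the receptors, Notch1 (Entrez gene 18128), the receptor required for embryonic vascular development, had log2 levels of 5.79, 5.78, 5.79 and 5.78 in VEGF-up cells, 5.78, 5.77, 5.77 and 5.79 in VEGF-down cells and 5.79, 5.98, 5.79 and 5.79 in GFP cells. Apart from the second GFP array all of them lay within 0.02 of each other. Its median absolute deviation over the 12 arrays was smaller than that of most probe sets of its level: only 10.5% of the 1338 probe sets within 0.5 log2 units of it varied less. Whether a probe set this steady reads Notch1 RNA or its own background was not tested. The differences were -0.06 ± 0.04 (SE, adjusted p = 0.252) for VEGF-down minus GFP, -0.05 ± 0.04 (adjusted p = 0.368) for VEGF-up minus GFP and 0.01 ± 0.04 (adjusted p = 0.985) for VEGF-up minus VEGF-down. Without the second GFP array the differences against GFP were -0.0095 and -0.0019.

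Notch2 (Entrez gene 18129), the receptor with a known role in smooth muscle and bone, had 8.80, 8.71, 8.79 and 8.81 in VEGF-up cells, 8.82, 8.82, 8.81 and 8.82 in VEGF-down cells and 8.97, 8.84, 8.83 and 8.85 in GFP cells. The 3 groups did not overlap: every VEGF-up array lay below every VEGF-down array, and every VEGF-down array below every GFP array. The steps were small, with differences of -0.09 ± 0.03 for VEGF-up minus GFP (95% interval -0.17 to -0.02, adjusted p = 0.0916), -0.05 ± 0.03 for VEGF-down minus GFP (adjusted p = 0.193) and -0.04 ± 0.03 for VEGF-up minus VEGF-down (adjusted p = 0.498). None passed the test. Notch2 was steady for its level as well: only 2.5% of the 1551 probe sets within 0.5 log2 units of it had a smaller median absolute deviation over the 12 arrays. With spike-in scaling VEGF-up minus GFP was -0.27 with an adjusted p of 0.02, beside a median of -0.18 over all probe sets, and VEGF-down minus GFP was -0.36 with an adjusted p of 0.000157, beside a median of -0.32.

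Notch3 (Entrez gene 18131), the receptor best known from mural cells around arteries, had 3.95, 3.82, 3.78 and 4.003 in VEGF-up cells, 3.42, 3.64, 3.77 and 3.66 in VEGF-down cells and 3.77, 3.79, 3.77 and 3.77 in GFP cells. All VEGF-up arrays were above all VEGF-down arrays, and GFP lay between them with almost no spread. Notch3 was 1.20-fold higher in VEGF-up than in VEGF-down cells, with means of 3.89 ± 0.10 and 3.62 ± 0.15 (SD, n = 4 each), and the difference of 0.27 ± 0.07 (SE, 95% interval 0.11 to 0.42) passed the test with an adjusted p of 0.0118. Across 17 other ways of processing it ranged between 0.12 and 0.40 and passed each time. The fold is of low values, between 3.42 and 4.003 on the 12 arrays, not far above the background level of 3.09. Neither difference against GFP passed, with -0.15 ± 0.07 for VEGF-down (adjusted p = 0.107) and 0.11 ± 0.07 for VEGF-up (adjusted p = 0.262). Without the third VEGF-down array, the highest of its group, VEGF-down minus GFP was -0.20 with an adjusted p of 0.0444. The same difference passed with median centring (-0.17, adjusted p = 0.042), beside a median of -0.03 over all probe sets. With spike-in scaling it passed as well (-0.46, adjusted p = 2.61e-05), beside a median of -0.32. The bases around the Notch3 transcription start, 250 before it and 50 after it, are shown because Notch3 is a changed receptor with a RefSeq promoter window (GRCm38.p6, chr17:32166841-32167140, minus strand, 5′ to 3′). The capitals mark the hexamer CACGNG, a sequence that HES and HEY repressors can bind, which begins 204 bases before the start.
Notch3: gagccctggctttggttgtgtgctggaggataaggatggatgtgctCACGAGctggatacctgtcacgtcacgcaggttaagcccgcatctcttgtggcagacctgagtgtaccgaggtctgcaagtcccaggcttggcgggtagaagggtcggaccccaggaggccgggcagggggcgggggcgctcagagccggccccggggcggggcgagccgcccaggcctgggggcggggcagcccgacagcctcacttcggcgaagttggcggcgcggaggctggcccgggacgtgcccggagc

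Notch4 (Entrez gene 18132), a receptor largely confined to endothelium, lay between 2.51 and 2.57 on all 12 arrays, below background. Its levels were 2.52, 2.52, 2.53 and 2.53 in VEGF-up cells, 2.52, 2.52, 2.52 and 2.51 in VEGF-down cells and 2.53, 2.57, 2.54 and 2.53 in GFP cells. The VEGF-down arrays lay just below the GFP arrays, and the difference of -0.02 ± 0.008 passed the test with an adjusted p of 0.0498. No fold is given, since both groups were below background. The call was lost in 12 of 16 other ways of processing, 7 of them the removal of a single array, and without the fourth GFP array the adjusted p was 0.0216. Against GFP, VEGF-up cells differed by -0.02 ± 0.008 (adjusted p = 0.182).

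Of the ligands, Jag1 (Entrez gene 16449), which encodes the Jagged ligand that opposes Dll4 in sprouting vessels, had log2 levels of 6.76, 6.61, 6.74 and 6.62 in VEGF-up cells, 7.16, 7.13, 7.16 and 7.23 in VEGF-down cells and 6.79, 6.78, 6.77 and 6.65 in GFP cells. The 4 VEGF-down arrays stood above the other 8, which overlapped each other. The means were 6.68 ± 0.08 in VEGF-up, 7.17 ± 0.04 in VEGF-down and 6.75 ± 0.06 in GFP cells (SD, n = 4 each). Jag1 rose in VEGF-down cells relative to GFP by 0.43 ± 0.04 (SE, 95% interval 0.33 to 0.52), or 1.34-fold, with an adjusted p of 1.94e-05. It passed the test in 16 of 17 other ways of processing. The exception was scaling to spike-in RNA, where the difference of 0.12 had an adjusted p of 0.241 beside a median of -0.32 over all probe sets. In VEGF-up relative to VEGF-down cells Jag1 fell by 0.49 on the log2 scale (SE 0.04, 95% interval of the difference -0.58 to -0.39, adjusted p = 5.71e-06), and this passed in 17 of 17, with -0.35 under spike-in scaling. Against GFP, VEGF-up cells differed by -0.06 ± 0.04 (95% interval -0.16 to 0.03, adjusted p = 0.315). The promoter window of Jag1 is shown as that of the ligand gene that changed (RefSeq, GRCm38.p6, chr2:137116471-137116770, minus strand, 5′ to 3′). Capitals again mark CACGNG on either strand, here beginning 249 and 171 bases before the start.
Jag1: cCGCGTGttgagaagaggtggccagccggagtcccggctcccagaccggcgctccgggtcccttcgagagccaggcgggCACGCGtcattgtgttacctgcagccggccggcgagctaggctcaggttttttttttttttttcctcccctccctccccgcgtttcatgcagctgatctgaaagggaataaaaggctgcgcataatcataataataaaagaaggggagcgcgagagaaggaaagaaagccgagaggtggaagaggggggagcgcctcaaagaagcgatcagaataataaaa

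Dll1 (Entrez gene 13388), the Delta-like ligand with known roles in somite formation and in arteries, had 4.18, 4.28, 4.34 and 4.31 in VEGF-up cells, 4.37, 4.38, 4.59 and 4.38 in VEGF-down cells and 4.38, 4.76, 4.33 and 4.87 in GFP cells. The GFP arrays fell into a lower and a higher pair and spanned the whole VEGF-down range, while the VEGF-up arrays lay below all VEGF-down arrays. The differences were -0.30 ± 0.11 for VEGF-up minus GFP (95% interval -0.56 to -0.05, adjusted p = 0.116), -0.15 ± 0.11 for VEGF-down minus GFP (adjusted p = 0.278) and -0.15 ± 0.11 for VEGF-up minus VEGF-down (adjusted p = 0.447), and none passed. The first depended on single GFP arrays: without the third GFP array, the lowest, the difference was -0.39 with an adjusted p of 0.044, and without the fourth, the highest, it was -0.21 with an adjusted p of 0.197. Across 17 other ways of processing this VEGF-up minus GFP difference passed in 2 and went down to -0.48. With spike-in scaling VEGF-down minus GFP was -0.46 with an adjusted p of 4.35e-05, beside a median of -0.32 over all probe sets.

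Dll4 (Entrez gene 54485), the tip cell ligand that VEGF-A is known to raise in endothelium, lay between 2.69 and 2.71 on all 12 arrays, below background on each of them. No difference between groups exceeded 0.0061 in size, and the adjusted p-values were 0.267, 0.286 and 0.998 for VEGF-down minus GFP, VEGF-up minus GFP and VEGF-up minus VEGF-down. A change of Dll4 RNA below what the probe set can read was not detectable on these arrays. Jag2 (Entrez gene 16450), the second Jagged ligand, had 2.97, 2.98, 2.99 and 2.98 in VEGF-up cells, 2.97, 2.61, 2.98 and 2.97 in VEGF-down cells and 3.16, 3.00, 2.98 and 2.98 in GFP cells. Only the first GFP array exceeded the background level. The difference of -0.15 ± 0.08 for VEGF-down minus GFP (adjusted p = 0.136) did not pass, and without the second VEGF-down array it was -0.06.

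Of the target genes, Hes1 (Entrez gene 15205), a repressor that Notch turns on in many tissues and that other pathways also turn on, had 7.72, 7.87, 7.70 and 7.81 in VEGF-up cells, 7.93, 7.99, 8.08 and 8.18 in VEGF-down cells and 7.88, 7.98, 7.92 and 7.86 in GFP cells. All VEGF-up arrays lay below all VEGF-down arrays, and the GFP arrays overlapped both. The means were 7.78 ± 0.08 in VEGF-up, 8.05 ± 0.11 in VEGF-down and 7.91 ± 0.06 in GFP cells (SD, n = 4 each). In VEGF-up relative to VEGF-down cells Hes1 fell by 0.27 on the log2 scale (SE 0.06, 95% interval of the difference -0.40 to -0.14, adjusted p = 0.00329), which is 1.21 times lower; with spike-in scaling the difference was -0.13 with an adjusted p of 0.193. The 2 differences against GFP were nearly equal in size and opposite in sign, 0.13 ± 0.06 for VEGF-down (adjusted p = 0.0924) and -0.14 ± 0.06 for VEGF-up (adjusted p = 0.156), and neither passed. With spike-in scaling they were -0.17 and -0.31, and the VEGF-up difference then passed with an adjusted p of 0.00689. The VEGF-down difference passed without the first VEGF-down array, the lowest of its group (0.17, adjusted p = 0.042), and with arrays weighted by their quality (0.16, adjusted p = 0.0471).

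Hey1 (Entrez gene 15213), the repressor of the Hey family that endothelial Notch signalling is known to turn on, lay below background on 11 of 12 arrays, between 2.58 and 2.60. The second VEGF-up array stood at 3.21. The differences were -0.01 ± 0.12 for VEGF-down minus GFP (adjusted p = 0.972) and 0.15 ± 0.12 for VEGF-up minus GFP (adjusted p = 0.350), and without that array VEGF-up minus GFP was -0.0024. No fold is given for Hey1 or Jag2, whose group means were below background.

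**Figure D3:**
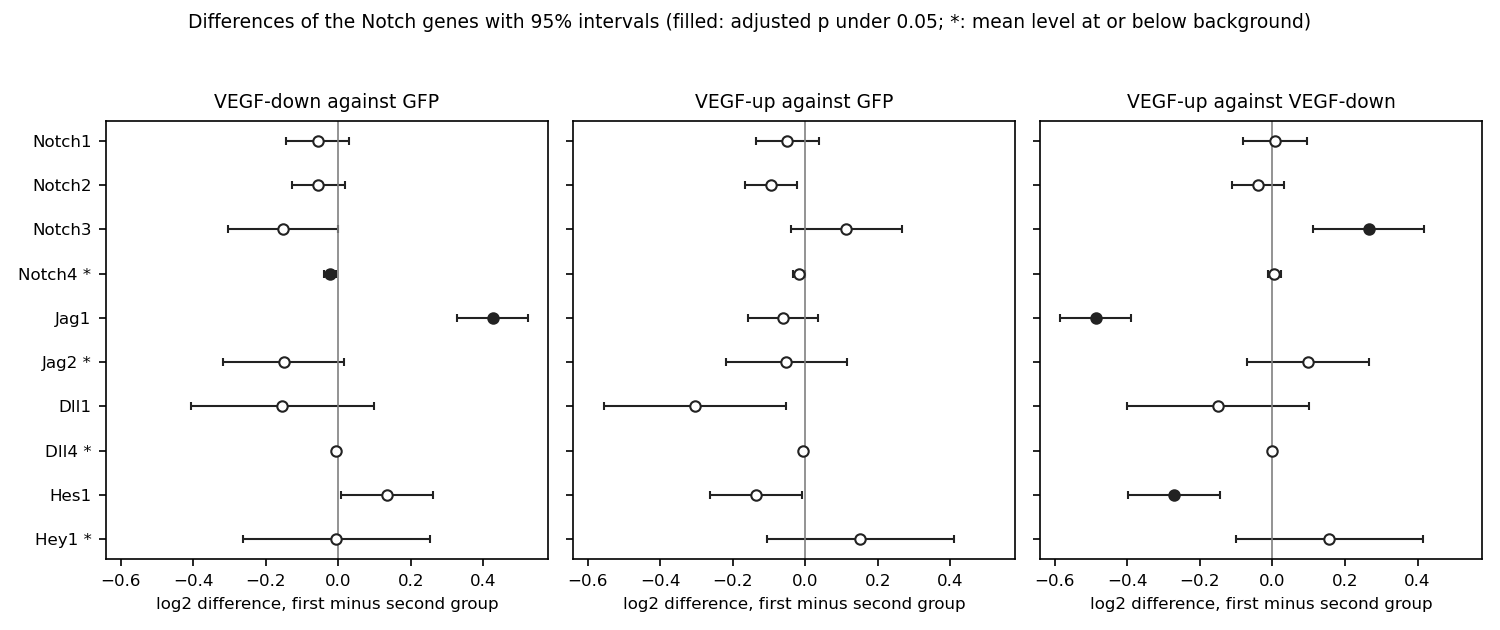
Log2 difference of each Notch gene with its 95% interval for the 3 comparisons, first group minus second; filled points have an adjusted p under 0.05, and an asterisk marks genes whose mean is at or below background. Jag1 is the only gene whose interval lies far from 0 in both comparisons with VEGF-down cells, and all 10 points are open for VEGF-up against GFP.

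Counted over the 10 genes, 1 rose (Jag1) and 1 fell (Notch4) in VEGF-down cells relative to GFP, where 31% of all tested probe sets changed, 14.6% upwards and 16.4% downwards. An unadjusted p under 0.05 was found for 4 of the 10 genes, and for at least the 31% of all probe sets that passed after adjustment. The arrays of the 2 groups did not overlap for 5 genes (Notch1, Notch2, Notch4, Jag1 and Jag2), against 37.1% of all probe sets. Of the 6 Notch genes above background 1 changed, against 45.1% of all probe sets above background. In VEGF-up cells relative to GFP, limma called 0 of the 10 genes, against 13.2% of all probe sets (6.73% upwards and 6.51% downwards). The unadjusted p was under 0.05 for 3 genes, and for at least those 13.2% of all probe sets. There the arrays of 1 gene, Notch2, did not overlap, against 18% of all. Between VEGF-up and VEGF-down cells 1 rose (Notch3) and 2 fell (Jag1 and Hes1), against 30.6% of all probe sets (15.1% upwards and 15.5% downwards), and the arrays of 5 genes (Notch2, Notch3, Jag1, Dll1 and Hes1) did not overlap, against 32.8%. The median difference of the 10 genes was -0.04, -0.05 and 0.00 for VEGF-down minus GFP, VEGF-up minus GFP and VEGF-up minus VEGF-down, beside -0.01, -0.01 and 0.00 over all probe sets. The comparisons with GFP share the 4 GFP arrays and the comparison of the shRNA groups shares its arrays with both, so they are not independent.

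The promoter windows were searched on both strands for 3 hexamers. RefSeq windows of 300 bases were at hand for 8 of the 10 genes, 9 windows in all since Dll1 has 2, but not for Hes1 and Hey1. TGGGAA, the core of the site that RBPJ binds, was in none of the 9 windows, against 25.6% of the 32851 windows of all genes. CACGNG was in 7 of the 9 windows, those of Notch2, Notch3, Jag1, Jag2, Dll1 and Dll4, against 27.5% of all windows. The Notch gene windows are rich in G and C, between 55.7% and 86.0% against a median of 52.7% over all windows, and 43.3% of the 14253 windows with at least 55% G and C held CACGNG. The palindromic form CACGTG, also counted under CACGNG, was in none of the 9 windows and in 7.2% of all. CACGNG is thus in the windows of Jag1 and Notch3, printed above, and also in those of Notch2, Jag2, Dll1 and Dll4, which did not pass the test in any comparison.

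For the 3 genes above background that changed, the probe sets with the most similar course over the 12 arrays were found among 10384 named probe sets above background, by the root mean square difference after centring each on its mean, as a share of the SD of the Notch gene. Closest to Jag1 were Snx13 (19.4%), a sorting nexin of the endosome, and Lactb (20.5%), a mitochondrial protease-like protein. Snx13 had differences of 0.40 for VEGF-down minus GFP and -0.03 for VEGF-up minus GFP, and Lactb 0.42 and -0.09. Closest to Hes1 were Pomgnt2 (40.1%), a glycosyltransferase gene, and Zdhhc24 (44.1%), of a family of palmitoyltransferases, and closest to Notch3 were Vps72 (30.2%), a subunit of chromatin remodelling complexes, and Elmo1 (37.4%), which acts in Rac activation. None of these 6 is a core gene of the Notch pathway.

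The other genes of the pathway were described from 8 lists that follow the signal from the receptor to its targets, with 66 measured genes of 73. In VEGF-down cells relative to GFP 14 of the 66 rose and 15 fell, in VEGF-up cells relative to GFP 7 rose and 5 fell, and in VEGF-up relative to VEGF-down cells 18 rose and 11 fell. The share that changed was 43.9% for VEGF-down against GFP, beside 31% of all probe sets and 45.1% of those above background. It was 18.2% for VEGF-up against GFP, beside 13.2% and 20.8%, and 43.9% for VEGF-up against VEGF-down, beside 30.6% and 48.2%. The counts of each single list below are to be read beside the same shares over all probe sets. Of the 66 genes 55 were above background. With spike-in scaling there were 4 rises and 53 falls for VEGF-down against GFP, 1 rise and 10 falls for VEGF-up against GFP, and 19 rises and 8 falls for VEGF-up against VEGF-down; with median centring there were 13 rises and 30 falls, 9 rises and 3 falls, and 38 rises and 11 falls in the same order. Spike-in scaling moved every VEGF-down minus GFP difference by the same amount, and took the median over all probe sets to -0.32, so rises were smaller and falls larger by that step for each gene named below. The other 7 were not analysed here.

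**Figure D4:**
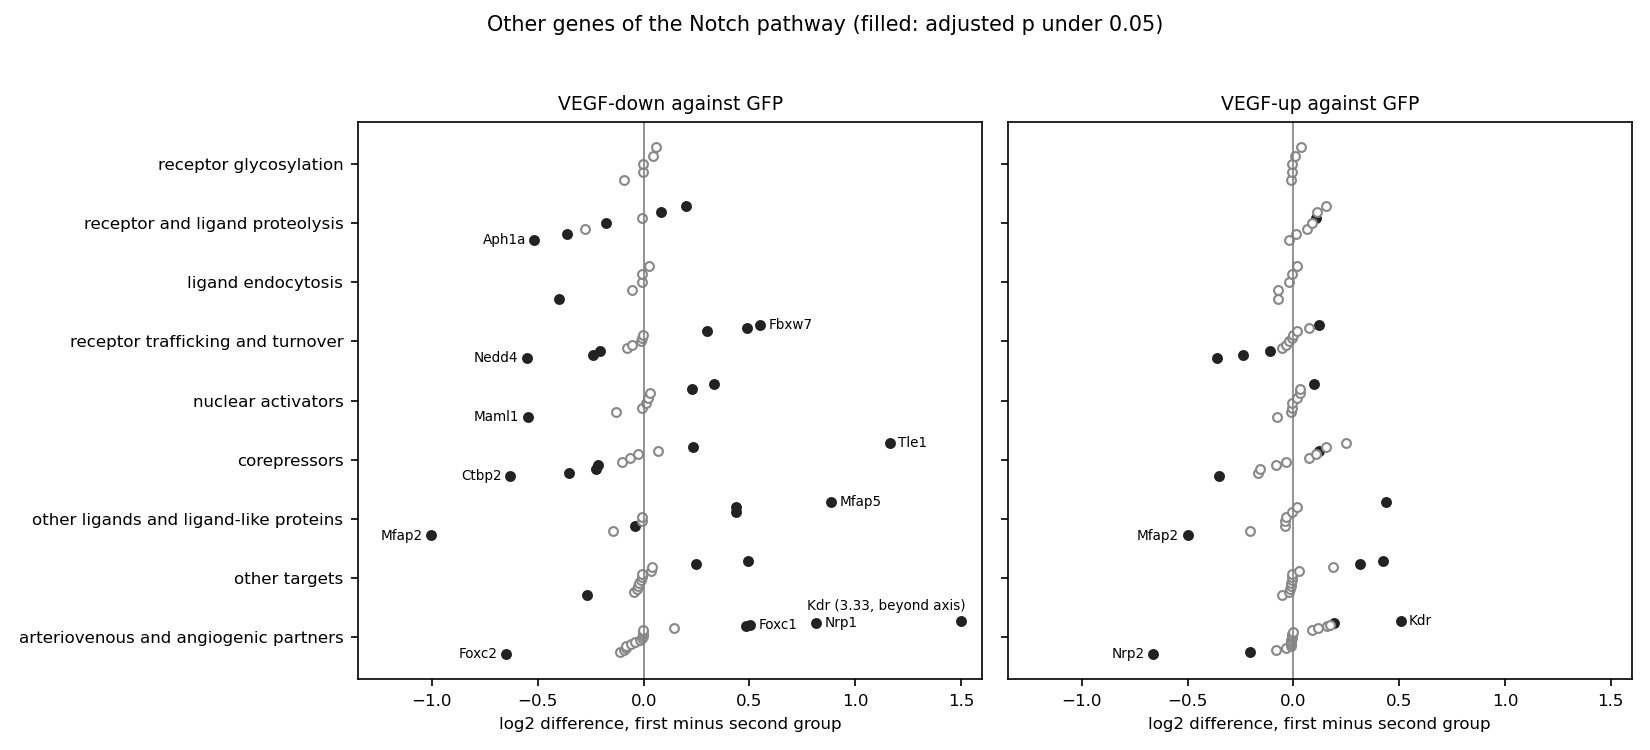
Log2 differences (horizontal axis, first group minus second) of the genes of 9 lists around the Notch pathway for VEGF-down against GFP and VEGF-up against GFP; filled points have an adjusted p under 0.05 and the largest are named. Tle1, Mfap5, Mfap2 and Kdr lie farthest from 0 in VEGF-down cells, and most points of VEGF-up cells lie near 0.

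Before the receptor meets its ligand, it is modified by sugar transferases. None of the 5 glycosylation genes, the Fringe genes Lfng, Mfng and Rfng among them, passed the test in any comparison, and 3 of them were above background. Of the 7 measured genes of receptor and ligand cleavage, 2 rose and 3 fell in VEGF-down cells relative to GFP. The largest was Aph1a, a subunit of gamma-secretase, with 6.49 to 6.74 in VEGF-down cells and 6.93 to 7.17 in GFP cells, a fall of the log2 level with a difference of -0.52 ± 0.06 (SE, adjusted p = 8.87e-05). Its paralog Aph1b fell as well (-0.36, adjusted p = 0.000134), and so did the ligand sheddase gene Adam17 (-0.18, adjusted p = 0.0172). Furin, the protease that cuts the receptor precursor, rose by 0.20 (adjusted p = 0.0166), and its difference was -0.11 with an adjusted p of 0.27 under spike-in scaling. Adam10, the protease of the first activating cut, rose in VEGF-down cells relative to GFP by 0.08 (adjusted p = 0.0414), a difference past the test in 7 of 17 other ways of processing, 1 of which, spike-in scaling, turned it into a fall (-0.23, adjusted p = 0.0123). Its rise in VEGF-up cells relative to GFP (0.11, adjusted p = 0.0248) passed in 10 of 17 and was -0.07 under spike-in scaling. In VEGF-up relative to VEGF-down cells 4 of the 7 rose, Aph1a by 0.67 (adjusted p = 9.38e-06), and none fell.

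Genes that route or degrade receptors and ligands moved in both directions. In VEGF-down cells relative to GFP, 3 of 11 such genes rose and 3 fell. Fbxw7, the ubiquitin ligase subunit that marks the Notch intracellular domain for degradation, had 8.24 to 8.30 in VEGF-down cells and 7.65 to 7.77 in GFP cells, a difference of 0.55 ± 0.03 (adjusted p = 1.61e-07; 0.24 with spike-in scaling, adjusted p = 0.00998). Nedd4, a ubiquitin ligase of the same family as Itch, had 11.29 to 11.42 in VEGF-down cells and 11.88 to 11.93 in GFP cells, a difference of -0.55 ± 0.03 (adjusted p = 4.65e-08). Dtx3l and Dtx4, of the Deltex family of Notch regulators, rose in VEGF-down cells (0.49 and 0.30) and fell in VEGF-up cells (-0.36 and -0.24) relative to GFP. With spike-in scaling the VEGF-down differences were 0.18 and -0.01 and no longer passed. In VEGF-up cells 1 of the 11 rose and 3 fell. Of the 5 genes of ligand endocytosis, Neurl1b alone fell in VEGF-down cells (-0.40, adjusted p = 0.0122), while the ligases Mib1 and Mib2 did not pass.

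In the nucleus, Rbpj, the DNA-binding partner of Notch, rose in VEGF-down cells relative to GFP (9.32 to 9.38 in VEGF-down cells and 9.09 to 9.16 in GFP cells, difference 0.23 ± 0.02, adjusted p = 6.83e-06), and its difference was -0.08 with spike-in scaling. The coactivator gene Maml1 fell there, with 6.86 to 6.98 in VEGF-down cells and 7.46 to 7.49 in GFP cells (-0.55 ± 0.03, adjusted p = 5.28e-08), and was 0.58 ± 0.03 higher in VEGF-up than in VEGF-down cells (adjusted p = 2.53e-08). Snw1, which binds RBPJ complexes and the spliceosome, rose by 0.33 in VEGF-down cells, with 0.02 under spike-in scaling. Against GFP, VEGF-down cells thus had 2 rises and 1 fall among 8 measured activators, and VEGF-up cells had 1 rise, that of Rbpj by 0.10 (-0.07 with spike-in scaling).

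Corepressors, which act with RBPJ or with HES proteins, included Tle1, the largest rise against GFP among the 66 genes. Of 10 measured, 2 rose and 4 fell in VEGF-down cells relative to GFP, 1 rose and 1 fell in VEGF-up cells, and 6 rose and 2 fell in VEGF-up relative to VEGF-down cells. Tle1, a Groucho corepressor that HES proteins recruit, had 9.81 to 9.91 in VEGF-up cells, 11.15 to 11.27 in VEGF-down cells and 9.86 to 10.12 in GFP cells. It rose in VEGF-down cells by 1.16 ± 0.05 (adjusted p = 3.27e-08; 0.85 with spike-in scaling, adjusted p = 1.71e-20) and fell by 1.33 on the log2 scale in VEGF-up relative to VEGF-down cells. The corepressor gene Ctbp2 went the other way, with 9.30 to 9.42 in VEGF-up cells, 8.77 to 8.97 in VEGF-down cells and 9.39 to 9.59 in GFP cells (VEGF-down minus GFP -0.63 ± 0.05, adjusted p = 3.18e-06). Tle5, a short Groucho family protein, had a difference of 0.60 ± 0.09 for VEGF-up minus VEGF-down (adjusted p = 0.000307). In VEGF-up cells relative to GFP, Tle2 fell (-0.35, adjusted p = 0.0454, kept in 3 of 17 other ways of processing) and Tle3 rose (0.12, adjusted p = 0.0109, but -0.05 with spike-in scaling).

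Of 8 other ligands and ligand-like proteins, 3 rose and 2 fell in the comparison of VEGF-down with GFP, and 1 rose and 1 fell in that of VEGF-up with GFP. Mfap2, a microfibril protein reported to bind Jagged ligands, had 5.97 on each of the 4 VEGF-up arrays, 5.17 to 5.74 in VEGF-down cells and 6.32 to 6.84 in GFP cells. Relative to GFP it fell in VEGF-down cells (-1.01 ± 0.14, adjusted p = 0.000206), and its fall in VEGF-up cells (-0.50 ± 0.14, adjusted p = 0.0398) was kept in 8 of 17 other ways of processing. Mfap5, a related microfibril protein, had 3.08 to 3.29 in VEGF-up cells, 3.74 to 4.52 in VEGF-down cells and 3.34 to 3.40 in GFP cells, and rose in VEGF-down cells by 0.88 ± 0.14 (adjusted p = 0.000502). Dlk2 and Ccn3 rose in VEGF-down cells by 0.44 each, with 0.13 each and no longer past the test under spike-in scaling. Egfl7, an endothelial secreted protein, rose in VEGF-up cells relative to VEGF-down cells by 0.58 ± 0.13 (adjusted p = 0.00402) and relative to GFP by 0.44 (adjusted p = 0.0447, kept in 7 of 17).

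Besides Hes1 and Hey1, 12 further target genes were measured, of which 7 were above background. Ccnd1, the cyclin D1 gene, had 10.84 to 10.98 in VEGF-up cells, 11.05 to 11.16 in VEGF-down cells and 10.54 to 10.63 in GFP cells. Relative to GFP it rose under the VEGF-up shRNA (0.31 ± 0.04, adjusted p = 0.000168; 0.14 and adjusted p = 0.14 with spike-in scaling) and under the VEGF-down shRNA (0.49 ± 0.04, adjusted p = 1.2e-06; 0.18 and adjusted p = 0.0432 with spike-in scaling). Efnb2, the ephrin of arterial endothelium, had 6.11 to 6.39 in VEGF-up cells, 6.06 to 6.10 in VEGF-down cells and 5.62 to 6.01 in GFP cells. It rose in VEGF-up (0.43 ± 0.08, adjusted p = 0.00585; 0.25 and adjusted p = 0.0543 with spike-in scaling) and in VEGF-down cells (0.25 ± 0.08, adjusted p = 0.0455, kept in 6 of 17 and -0.06 with spike-in scaling). Myc, which T cell leukaemias driven by Notch depend on, fell in VEGF-down cells (-0.27 ± 0.06, adjusted p = 0.00502). The other 9 targets, among them Hes5, Hey2, Heyl and Nrarp, passed in neither comparison with GFP.

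The 18 arteriovenous and angiogenic partners gave 4 rises and 1 fall for VEGF-down against GFP, 2 rises and 2 falls for VEGF-up against GFP, and 3 rises and 6 falls for VEGF-up against VEGF-down. With spike-in scaling these counts were 3 and 13, 1 and 3, and 4 and 5, and with median centring 5 and 9, 2 and 2, and 10 and 5. Kdr, the main VEGF-A receptor gene, had 5.20 to 5.75 in VEGF-up cells, 8.22 to 8.35 in VEGF-down cells and 4.96 on all 4 GFP arrays, and differed from GFP by 3.33 ± 0.09 in VEGF-down and 0.51 ± 0.09 in VEGF-up cells. The GFP values of Kdr had an SD of 0.0019. Whether values this steady read Kdr RNA or the background of the probe set was not tested. Nrp1, a VEGF co-receptor, rose in VEGF-down cells (0.82 ± 0.05) and fell in VEGF-up cells (-0.21 ± 0.05, adjusted p = 0.0123). Its relative Nrp2 had 8.13 to 8.28 in VEGF-up cells and 8.80 to 8.94 in GFP cells (-0.66 ± 0.05, adjusted p = 1.14e-05). The forkhead genes Foxc1 and Foxc2, which act upstream of Dll4 in arterial endothelium, went opposite ways in VEGF-down cells (0.50 ± 0.04 and -0.65 ± 0.06; 0.19 and -0.96 with spike-in scaling). Nr2f2, the venous regulator that restrains Notch, rose there by 0.48 ± 0.05, with 0.17 and an adjusted p of 0.0594 under spike-in scaling. The artery gene Unc5b rose in VEGF-up cells (0.19 ± 0.03, adjusted p = 0.00226; 0.02 with spike-in scaling).

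None of the 10 Notch genes is among the 1204 genes of the authors' deposited table for VEGF-down or the 794 genes of the authors' deposited table for VEGF-up, whose smallest absolute folds are 1.41 and 1.22. Of the genes around the pathway, the authors' deposited table for VEGF-down lists Tle1 at 2.242, Fbxw7 at 1.495, Maml1 at -1.455, Nedd4 at -1.457, Ctbp2 at -1.501 and Mfap2 at -1.92 as signed folds, and the authors' deposited table for VEGF-up lists Efnb2 at 1.381, Ccnd1 at 1.243, Dtx3l at -1.269 and Mfap2 at -1.472. Of the arteriovenous and angiogenic partners, the authors' deposited table for VEGF-down lists Kdr at 10.516, Nrp1 at 1.756 and Foxc2 at -1.567. The one for VEGF-up lists Kdr at 1.486 and Nrp2 at -1.62.

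**Figure D5:**
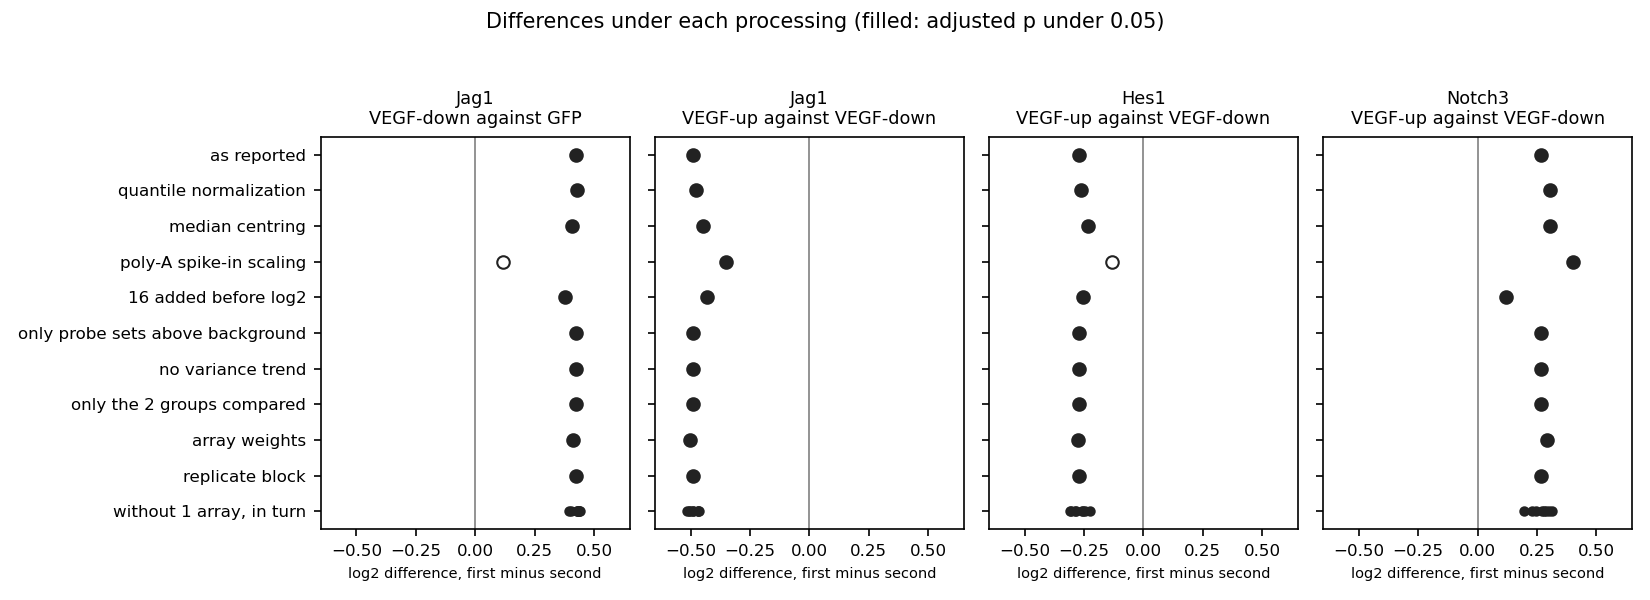
Log2 differences (horizontal axis, first group minus second) of Jag1, Hes1 and Notch3 under each way of processing; filled points have an adjusted p under 0.05, and the lowest line holds the fits that leave out 1 array in turn. Scaling to poly-A spike-in RNA is the setting that ends the call of Jag1 against GFP (0.12) and of Hes1 between the shRNA groups (-0.13).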

How the data were processed

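RNA of 12 samples was labelled with a 3′ IVT kit, per the labels' protocols, and measured on 1 array each. Each sample's deposited values are intensities of probe sets that were not logged, produced by GCRMA (version not given) according to the submitters' processing notes; GCRMA subtracts a background modelled on probe sequence, so that dim probe sets gather near a floor. Build and chip definition behind the values are not given in the sources used here. The authors also deposited a table of changed genes for each shRNA, whose signed fold and T-statistic are scores per the file headers and whose p-values and q-values come from a test that the headers do not describe. In those deposited tables T has the opposite sign to the fold in every gene, and only the fold is used.

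Intensities, which run from 3.04 to 17470.06, were converted to log2 without adding an offset or rescaling; array medians lay between 5.15 and 5.21. The 64 control probe sets were left out, and 842 of the 17306 tested probe sets have no symbol. Symbols came from the platform table and RefSeq (GRCm38.p6), matched on the Entrez number. limma 3.58.1 in R 4.3.3 fitted 1 mean per group to all 12 arrays (lmFit, eBayes with a variance trend). Tests were two-sided, with Benjamini-Hochberg adjustment over all 17306 probe sets and a threshold of 0.05, and the script was tested on simulated data. "Rose", "fell" and "changed" are used only of what passed. Errors are the SE of the fit or the SD over 4 arrays, and the number of arrays limits the precision.

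All 10 Notch genes and Vegfa are named, and from the other lists up to 6 rises and 6 falls per comparison with arrays that do not overlap and a brighter group above background, plus genes with a clear role and genes in the authors' tables. The members, lists and background class were chosen with earlier results of these data known. Replicate numbers recur in all groups, but the main fit did not treat same-numbered arrays as pairs. The correlation of deviations of same-numbered arrays ran from -0.09 to 0.16 over 12 pairs, 1 of them above 0.1. For arrays with different numbers it ran from -0.20 to 0.15. These correlations cannot exclude a pairing. Promoter windows are RefSeq's, of GRCm38.p6. Alternatives were quantile normalization, median centring, scaling to poly-A spike-ins, 16 added before log2, probe sets above background alone, no variance trend, the 2 compared groups alone, array weights, the replicate block and leaving out each array.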

Additional observations from a re-analysis of the deposited data

Results flagged for a closer look

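In 8 of 30 groups of 4 arrays (10 Notch genes in 3 groups) 1 array stood apart from the other 3 by more than Dixon's 95% critical value allows. That critical value assumes normally spread values, which values near a floor need not follow. The share of groups flagged over all probe sets was not counted, so 8 of 30 cannot be called unusual for these arrays. In 5 of the 8 the gap exceeded 0.1 on the log2 scale.

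The widest was Hey1 on the second VEGF-up array, at 3.21 (3.2095) against 2.59 to 2.60 on the other VEGF-up arrays. Jag2 on the second VEGF-down array was at 2.61 (2.6088) against 2.97 to 2.98, and Jag2 on the first GFP array at 3.16 (3.1554) against 2.98 to 3.00. Dll1 on the third VEGF-down array was at 4.59 (4.5892) against 4.37 to 4.38. Notch1 on the second GFP array was at 5.98 (5.9766) against 5.79.

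The other 3 gaps were under 0.1. They were Notch2 on the second VEGF-up array (8.7067, against 8.79 to 8.81), Notch3 on the second GFP array (3.7918, against 3.77) and Jag2 on the third VEGF-up array (2.9873, against 2.97 to 2.98). The second GFP array holds 2 of the 8. No Jag1 or Hes1 value stood apart in this way.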

How the results depend on the processing

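Of the 10 Notch genes, 2 changed in VEGF-down cells relative to GFP. That count was 1 with quantile normalization, 16 added before log2, probe sets above background alone, no variance trend, the 2 groups alone and the replicate block; it was 3 with array weights, 4 with median centring and 8, all falls, with spike-in scaling, and 1 to 2 with 1 array left out. In VEGF-up cells relative to GFP the count of 0 was 3 with spike-in scaling and 0 to 1 with 1 array left out, where the 1 is Dll1 without the third GFP array. In VEGF-up relative to VEGF-down cells the count of 3 was 5 with median centring and 3 with each array left out. Over all probe sets the count for VEGF-down against GFP was 5358, of which 47.1% rose, and became 10708 (23.8% rises) with median centring and 15048 (4.5% rises) with spike-in scaling. The count for VEGF-up against VEGF-down was 5288 (49.3% rises), and became 11521 (78.3% rises) with median centring and 4668 (73.2% rises) with spike-in scaling. That for VEGF-up against GFP was 2291 (50.9% rises), with 60.2% rises under median centring and 5.3% under spike-in scaling. With 1 array left out these counts were 4557 to 5277 (VEGF-down against GFP), 4836 to 5054 (VEGF-up against VEGF-down) and 1883 to 2455 (VEGF-up against GFP), and with the replicate block 4876, 5084 and 2085. The block ended the call of Notch4 and no other call of a Notch gene. Spike-in scaling took the median of all differences to -0.32 (VEGF-down minus GFP), -0.18 (VEGF-up minus GFP) and 0.14 (VEGF-up minus VEGF-down), and whether equal amounts of spike-in were added to each sample is not given in the sources used here. Of 498 single-gene differences under these alternatives 15 changed sign, 8 of them of Dll4 and 5 with spike-in scaling (Notch2, Notch3, Dll4, Hes1 and Hey1); none of the 15 had passed the test before. The 1 that then passed was Dll4, below background, which differed by -0.00 between VEGF-up and VEGF-down cells and by 0.04 (0.0379, adjusted p = 0.00145) with median centring. Calls of single genes changed 34 times, 14 with spike-in scaling (12 gained, and 2 lost, Jag1 against GFP and Hes1 between the shRNA groups), 10 with 1 array left out and 10 in the other settings; 12 of the 34 were the loss of Notch4. The 4 Notch genes at or below background (Notch4, Jag2, Dll4 and Hey1) can show no change smaller than what these probe sets read.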
